A study of Homo sapiens with 18 samples.

Results

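The genes described here are 35 genes of glucose metabolism and oxygen sensing, read from gene counts of 18 RNA-seq libraries of HAP1 cells. They were listed by name for their role in these pathways, with earlier results of these data known. They fall into 26 glycolysis members, which are the glucose and lactate transporters, the enzymes of the pathway and the kinases that regulate it, and 9 HIF members, which are HIF1A and genes known as targets of the hypoxia-inducible factor. All 35 were found among the 63677 gene identifiers of the count files, and 34 of them were among the 15179 genes with enough reads to be tested. The exception was CA9, the carbonic anhydrase used as a marker of hypoxia, which had 1 read in each of 2 libraries and none in the other 16.

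HAP1 cells are human, near-haploid and adherent, and descend from KBM-7, a line of chronic myeloid leukaemia. The 6 groups combined 3 lines with 2 media, with 3 libraries in each group, described by the submitters as independent biological replicates. The knockout lines are labelled ATG7KO, named for an enzyme needed to build autophagosomes, and RB1CC1KO, named for a scaffold protein that starts autophagy. Each is compared with WT, the parental cells. The starved cells of each line spent 6 h without amino acids and serum in EBSS, Earle's balanced salt solution. Their controls stayed in full medium, Iscove's Modified Dulbecco's Medium with 10% fetal calf serum. Each genotype is 1 line, so the effect of a knockout and any other difference between the cell populations cannot be told apart. EBSS contains glucose, at a lower concentration than the full medium, so the change of medium also lowered the glucose supply.

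Glycolysis takes glucose in through facilitative transporters and splits it to pyruvate, which is passed to mitochondria or reduced to lactate and exported by monocarboxylate transporters. Hypoxia-inducible factors are transcription factors whose alpha subunit, such as HIF1A, is made continuously and destroyed after prolyl hydroxylases of the EGLN family mark it in the presence of oxygen. When it is stable it binds a short core sequence in promoters and raises many genes of glycolysis together with EGLN3, ANKRD37, KDM3A, ADM and CA9, which is why both sets are often read together. RNA levels do not report the amount of HIF1A protein, and oxygen was not varied here.

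Reads in genes ranged from 4892072 to 26005942 per library, with ATG7KO EBSS replicate 3 the shallowest. ATG7 had 11.0, 10.2 and 9.97 CPM (counts scaled to a common library size) in EBSS and 4.51, 3.68 and 3.87 in full medium in the ATG7KO line, against 16.0, 17.8 and 14.5 in EBSS and 14.2, 15.7 and 16.8 in full medium in WT. RB1CC1 was not reduced in the line labelled as its knockout, at 251, 280.0 and 259.8 CPM in EBSS and 147, 171 and 152 in full medium, against 225, 231 and 209.8 and 94.2, 106 and 115 in WT. Its RNA therefore does not check that label, and the line is called RB1CC1KO-labelled below. Of 9 haematopoietic markers 6 averaged under 1 CPM in each line, and MPO had no read in any library. The summed marker levels differed between the lines and between the media. The haematopoietic sum was 6.15 to 8.59 CPM in EBSS and 20.03 to 20.7 CPM in full medium in ATG7KO, 27.7 to 29.8 and 71.1 to 78.5 CPM in RB1CC1KO-labelled, and 27.8 to 32.8 and 57.6 to 68.6 CPM in WT libraries. All 3 haematopoietic markers with enough reads to be tested were lower in EBSS in each line, with a median log2 change of -1.88 in ATG7KO, -0.99 in RB1CC1KO-labelled and -1.11 in WT cells. The fibroblast and mesenchymal sum was 185 to 196 CPM in EBSS and 204 to 219.8 CPM in full medium in ATG7KO, 59.5 to 63.9 and 70.9 to 79.8 CPM in RB1CC1KO-labelled, and 123 to 136 and 151 to 158 CPM in WT libraries. Of its 4 tested markers 3 were lower in EBSS in ATG7KO, 2 in RB1CC1KO-labelled and 3 in WT cells, and DCN and LUM had no read. The epithelial sum was 59.6 to 66.7 CPM in EBSS and 62.5 to 67.0 CPM in full medium in ATG7KO, 85.6 to 96.2 and 71.8 to 81.8 CPM in RB1CC1KO-labelled, and 116 to 122 and 102 to 113 CPM in WT libraries. Some single markers differed from WT by more than these sums. In ATG7KO the 4 tested fibroblast and mesenchymal markers had log2 differences of -5.09 to 0.68 in EBSS and -3.27 to 0.63 in full medium. In RB1CC1KO-labelled cells they were -5.67 to -0.30 and -6.18 to -0.31. The 4 tested epithelial markers differed by -4.80 to -0.67 and -4.31 to -0.38 in ATG7KO. In RB1CC1KO-labelled cells they differed by -5.29 to -0.17 and -6.82 to -0.14. The part of the markers in the differences between lines and media was not tested.

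Most glycolytic enzymes stayed close to their level in full medium after starvation, while SLC2A3, EGLN3, ANKRD37 and KDM3A changed at least 2-fold in each line. In WT cells 4 of 26 glycolysis members were higher and 10 were lower in EBSS at an adjusted p below 0.05, and of 8 HIF members tested 5 were higher and 1 was lower (edgeR's quasi-likelihood test with Benjamini-Hochberg adjustment over all genes). The share of all tested genes called in WT was 64.5%, so a call by itself was the common outcome, for these sets as for all genes. In ATG7KO cells, where 62.9% of all genes were called, 6 glycolysis members were higher and 7 lower, and 4 HIF members were higher and 1 lower. In RB1CC1KO-labelled cells, where 65.1% were called, the counts were 9 higher and 5 lower among glycolysis members and 5 higher and 1 lower among HIF members. Over all genes the calls were 32.3% higher and 30.6% lower in ATG7KO, 31.9% and 33.3% in RB1CC1KO-labelled, and 32.4% and 32.1% in WT cells. The sizes differed more than the counts. The median size of the log2 change among glycolysis members was 0.19 in ATG7KO, 0.16 in RB1CC1KO-labelled and 0.14 in WT cells, against 0.45 in each line over all tested genes. Among HIF members it was 0.51, 0.82 and 0.50 in the same lines. At least 2-fold changes were called for 1 glycolysis member, SLC2A3, in each line, and for EGLN3, ANKRD37 and KDM3A, with ADM added in the RB1CC1KO-labelled line. In all tested genes 19.2%, 21.5% and 19.7% passed that size in ATG7KO, RB1CC1KO-labelled and WT cells.

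The direction of small changes depended on the scaling of the libraries. With upper-quartile scaling the median log2 change of all genes in EBSS was -0.17 in each line, against -0.01 in ATG7KO, -0.03 in RB1CC1KO-labelled and -0.02 in WT cells with TMM scaling, and the share of higher genes among those called in WT was 37.4% instead of 50.3%. The glycolysis counts then were 3 higher and 16 lower in ATG7KO, 4 and 11 in RB1CC1KO-labelled and 2 and 19 in WT cells, while the HIF counts were 4 and 1, 5 and 2, and 4 and 1. The members' share of all gene reads was 1.42% to 1.61% in EBSS libraries and 1.58% to 1.71% in full-medium libraries for the glycolysis set. For the HIF set it was 0.0537% to 0.0657% in EBSS and 0.0412% to 0.0462% in full medium, without overlap. HIF1A itself had the most reads of this set in each library, so the sum does not describe the targets as a group. Reads from mitochondrial genes were 1.41% to 2.36% of the total in EBSS and 3.24% to 4.26% in full medium; the part of this shift in the small changes was not tested. In bulk RNA, fewer cells with a transcript and less of it per cell cannot be told apart.

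**Figure D1:**
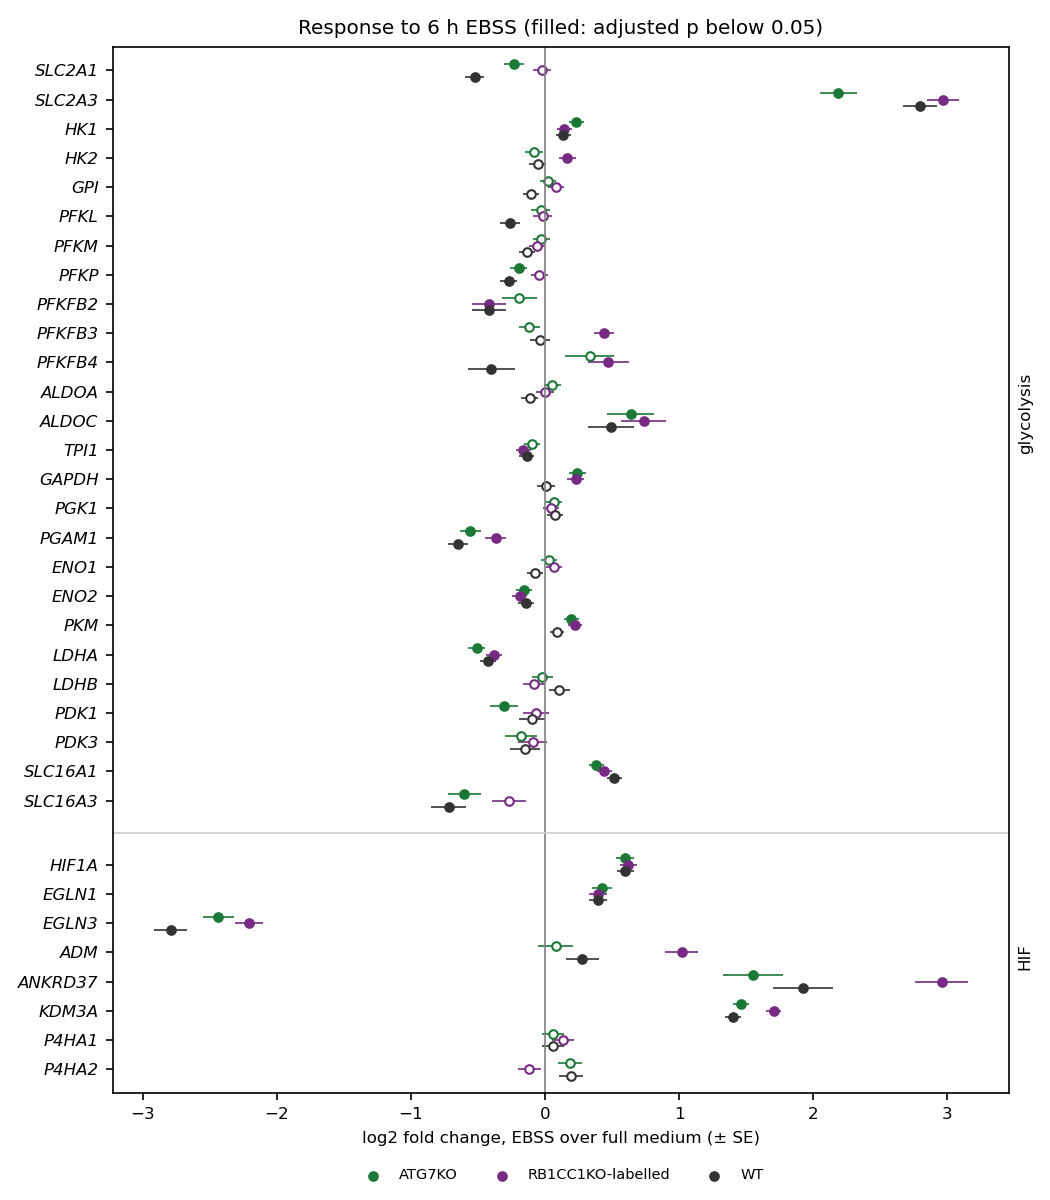
Response of each tested member to 6 h of EBSS as the log2 fold change over full medium (x axis, ± SE), in ATG7KO, RB1CC1KO-labelled and WT cells, with glycolysis members above the line and HIF members below. Filled points passed an adjusted p of 0.05. Most glycolysis members lie within 0.5 of 0, whereas SLC2A3, EGLN3, ANKRD37 and KDM3A lie beyond 1 in all 3 lines.

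Glucose entry showed the largest change among the glycolysis members. SLC2A3 encodes GLUT3, a high-affinity glucose transporter best known from neurons. In ATG7KO cells it had 22.5, 18.6 and 21.2 CPM in EBSS, against 3.73, 4.70 and 5.24 CPM in full medium. RB1CC1KO-labelled cells had 49.1, 43.1 and 39.4 CPM in EBSS and 5.60, 6.14 and 5.04 CPM in full medium. In WT cells the values were 41.0, 32.8 and 39.1 CPM in EBSS and 6.29, 5.06 and 4.96 CPM in full medium. Every EBSS library was above every full-medium library, a separation found in 67.3%, 66.5% and 67% of all tested genes in ATG7KO, RB1CC1KO-labelled and WT cells, and the ATG7KO line had the lowest starved level. The log2 changes were 2.19 ± 0.14 (SE) in ATG7KO, 2.97 ± 0.12 in RB1CC1KO-labelled and 2.80 ± 0.13 in WT, with adjusted p of 6.02e-16, 2.92e-21 and 6.82e-20 in edgeR's test. SLC2A14, a near copy of SLC2A3 to which shared reads could be lost, averaged 0.0707 CPM in starved ATG7KO cells, 0.0517 CPM in starved RB1CC1KO-labelled cells and 0 in the other 4 groups.

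SLC2A1, which encodes GLUT1, the main glucose transporter of most proliferating cells, moved the other way in 2 of the lines. ATG7KO cells had 80.6, 86.5 and 77.9 CPM in EBSS, against 94.4, 95.7 and 99.1 CPM in full medium. In RB1CC1KO-labelled cells SLC2A1 had 128, 124 and 132 CPM in EBSS and 134, 122 and 134 CPM in full medium. WT cells had 72.6, 67.0 and 83.9 CPM in EBSS, against 114, 101 and 107 CPM in full medium. The media did not overlap in ATG7KO and WT cells and overlapped in RB1CC1KO-labelled cells. SLC2A1 fell, with log2 changes of -0.23 ± 0.07 in ATG7KO (edgeR adjusted p = 0.00545) and -0.53 ± 0.07 in WT cells (adjusted p = 5.74e-08), and its change was -0.02 ± 0.07 in RB1CC1KO-labelled cells (adjusted p = 0.780). Per kilobase of exon, SLC2A3 made up 16.4% ± 1.91 of the RNA of both transporters in starved ATG7KO cells, 20.8% ± 2.08 in starved RB1CC1KO-labelled cells and 28.0% ± 2.00 in starved WT cells (SD, n = 3). In full medium its share was 3.49% ± 0.49, 3.21% ± 0.46 and 3.73% ± 0.31 in the same lines. SLC2A1 thus remained the more abundant of the pair in each group.

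**Figure D2:**
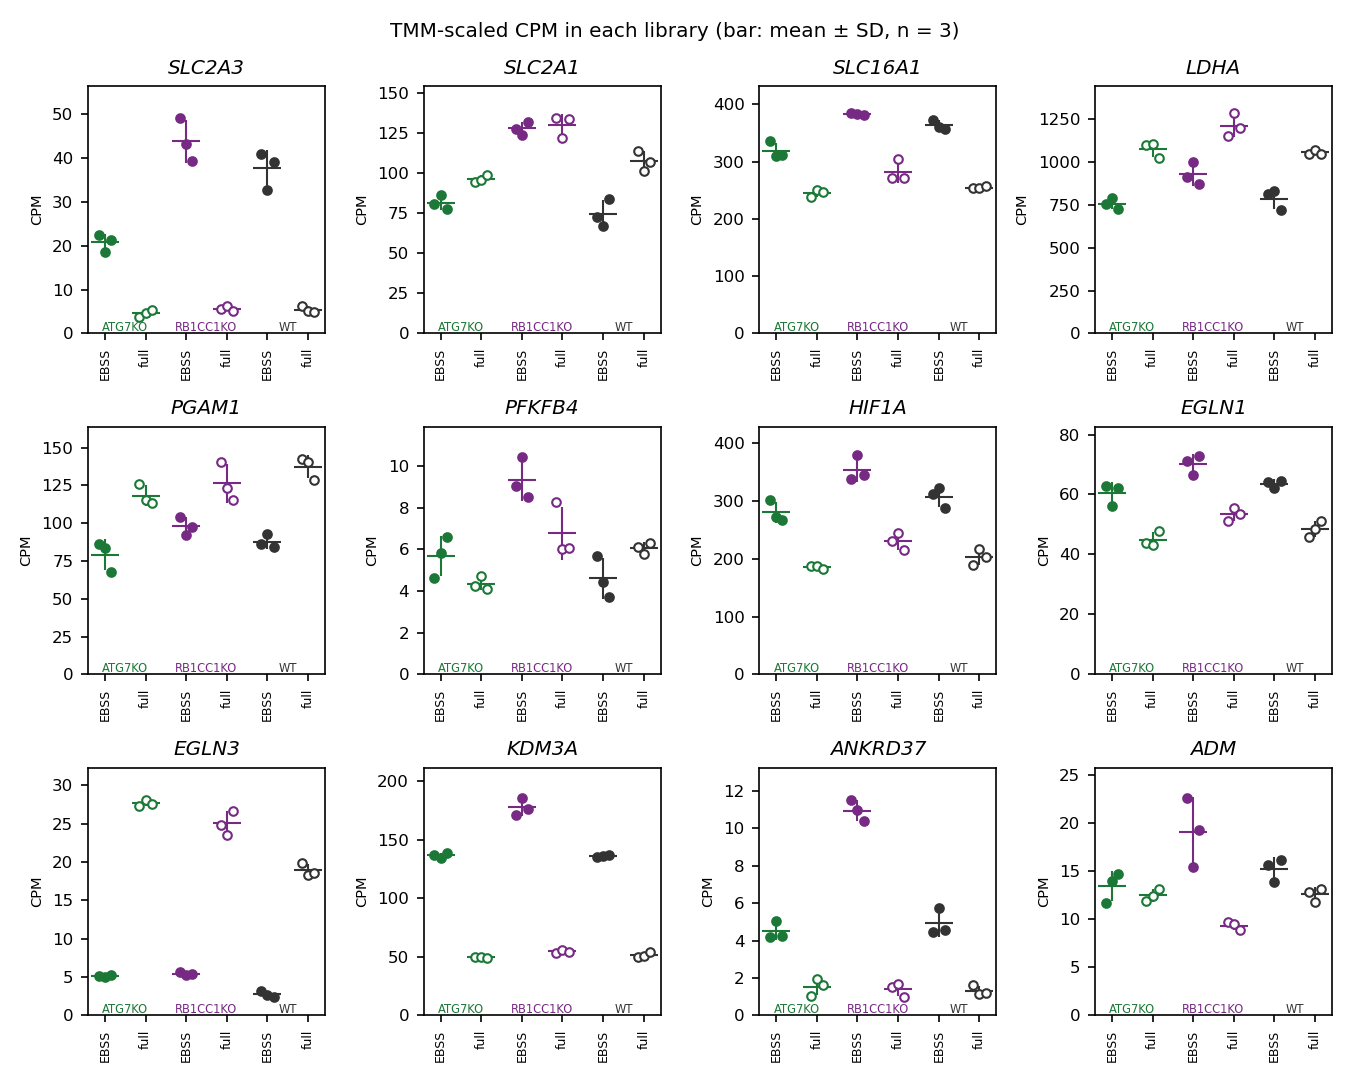
TMM-scaled CPM of 12 members in each of the 18 libraries (y axis from 0), with filled points for EBSS, open points for full medium, and a bar for the mean ± SD of 3 libraries. SLC2A3, KDM3A and ANKRD37 are higher and EGLN3 is lower in EBSS in every line, without overlap of libraries; SLC2A1 overlaps between media in RB1CC1KO-labelled cells.

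The enzymes from hexokinase to triosephosphate isomerase changed little. HK1 and HK2 encode hexokinases, which trap glucose by phosphorylation. HK1 was called higher in all 3 lines, with log2 changes of 0.23 in ATG7KO, 0.14 in RB1CC1KO-labelled and 0.14 in WT cells, but with upper-quartile scaling no line kept the call, at changes of 0.07, 0.0002 and -0.02 (edgeR adjusted p = 0.270, 0.999 and 0.806). The HK1 call was also lost when single libraries were left out. In ATG7KO this was EBSS replicate 2 (edgeR adjusted p = 0.0646 without it). In RB1CC1KO-labelled cells it was replicate 2 or 3 of either medium (adjusted p from 0.055 to 0.075), and in WT any library but full-medium replicate 1 (adjusted p from 0.0697 to 0.193). HK2 had a log2 change of -0.08 in ATG7KO and -0.05 in WT. In RB1CC1KO-labelled cells its change of 0.17 passed the threshold (adjusted p = 0.0228) but not without EBSS replicate 1 or 3 (0.0525 and 0.0781) or full-medium replicate 3 (0.0569), and with upper-quartile scaling it was 0.02 (0.757). GPI, which isomerises glucose phosphate, and the abundant aldolase ALDOA passed the test in no line. ALDOC, the aldolase known from brain, was a low-level gene and rose. It averaged 6.95 ± 0.429 CPM in EBSS and 4.41 ± 0.805 CPM in full medium in ATG7KO cells (SD, n = 3), and 6.63 ± 0.352 and 3.98 ± 0.388 CPM in RB1CC1KO-labelled cells. In WT cells it averaged 6.60 ± 1.30 CPM in EBSS and 4.77 ± 0.823 CPM in full medium, where libraries of the media overlapped. Its log2 changes were 0.64 ± 0.18, 0.74 ± 0.17 and 0.49 ± 0.17 in ATG7KO, RB1CC1KO-labelled and WT cells (adjusted p = 0.00206, 2.57e-04 and 0.0122), and the WT call was lost without EBSS replicate 3 (0.128) or full-medium replicate 2 (0.121), or with upper-quartile scaling (0.0809).

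Phosphofructokinase, the committed step, has 3 subunit genes, of which none rose. PFKL fell in WT (log2 change -0.26 ± 0.07, edgeR adjusted p = 0.00180; -0.03 in ATG7KO and -0.02 in RB1CC1KO-labelled cells, which were not called). PFKP fell in WT (-0.27 ± 0.06, adjusted p = 3.77e-04) and in ATG7KO cells (-0.20 ± 0.06, adjusted p = 0.00872, but 0.0725 without EBSS replicate 3). PFKM passed in no line. TPI1, which interconverts the triose phosphates, had log2 changes of -0.10, -0.16 and -0.14 in ATG7KO, RB1CC1KO-labelled and WT cells. The WT call was lost without EBSS replicate 2 or full-medium replicate 1 or 3 (adjusted p up to 0.132), and the RB1CC1KO-labelled call without full-medium replicate 3 (0.0966).

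The bifunctional PFKFB enzymes make and break down the sugar bisphosphate that activates phosphofructokinase, and they did not move together. PFKFB4 was the one member with opposite calls. ATG7KO cells had 4.65, 5.84 and 6.58 CPM in EBSS and 4.23, 4.70 and 4.12 CPM in full medium. RB1CC1KO-labelled cells had 9.07, 10.5 and 8.51 CPM in EBSS, against 8.26, 6.02 and 6.07 CPM in full medium. WT cells had 5.67, 4.44 and 3.72 CPM in EBSS and 6.14, 5.80 and 6.30 CPM in full medium. The media did not overlap in RB1CC1KO-labelled cells, where EBSS was higher, or in WT cells, where EBSS was lower, and they overlapped in ATG7KO cells. PFKFB4 had log2 changes of 0.33 ± 0.18 in ATG7KO (edgeR adjusted p = 0.111), 0.47 ± 0.15 in RB1CC1KO-labelled (adjusted p = 0.00679) and -0.40 ± 0.17 in WT cells (adjusted p = 0.0419). These are low counts, 31 to 247 reads per library, and the calls were fragile. The RB1CC1KO-labelled call was lost without EBSS replicate 2 (0.0542) or with upper-quartile scaling (0.0547), and the WT call was lost without any one WT library but EBSS replicate 1 (0.0567 to 0.217). The WT call was also lost with DESeq2 (0.0521), with no filter on low counts (0.0520) and in a fit of the compared groups only (0.0534). PFKFB3, the inducible isoform studied in tumours, rose in RB1CC1KO-labelled cells to 91.1 ± 6.00 CPM in EBSS, against 66.9 ± 3.26 CPM in full medium (log2 change 0.44 ± 0.07, adjusted p = 2.69e-06). Its changes were -0.12 in ATG7KO and -0.04 in WT cells. PFKFB2 fell in RB1CC1KO-labelled (-0.42 ± 0.13, adjusted p = 0.00395) and WT cells (-0.42 ± 0.13, adjusted p = 0.00497) and had a change of -0.19 in ATG7KO cells. YOD1, on the opposite strand of PFKFB2, had log2 changes of -1.65, -3.22 and -3.27 in ATG7KO, RB1CC1KO-labelled and WT cells. UCN2, which overlaps PFKFB4 on its own strand, had changes of 2.95, 4.25 and 3.78. They had 223 and 91 reads over all libraries, and their part in these counts was not tested.

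Among the enzymes from GAPDH to pyruvate kinase, PGAM1 stood out. GAPDH, the dehydrogenase often used as a reference gene, was the most abundant member. In ATG7KO cells it had 3576, 3747 and 3289 CPM in EBSS, against 3154, 3109.8 and 2723 CPM in full medium. RB1CC1KO-labelled cells had 3777, 4205 and 3786 CPM in EBSS and 3508, 3243 and 3304 CPM in full medium. In WT cells it had 3447, 3299 and 3421 CPM in EBSS and 3442, 3165 and 3503 CPM in full medium. The media overlapped in WT cells and not in the knockout-labelled lines. The log2 changes were 0.24 ± 0.07 in ATG7KO (edgeR adjusted p = 0.00172, and 0.103 without EBSS replicate 2), 0.23 ± 0.06 in RB1CC1KO-labelled (adjusted p = 0.00266) and 0.01 ± 0.06 in WT cells (adjusted p = 0.922). PKM, pyruvate kinase, had changes of 0.20, 0.22 and 0.09 in the same lines, with calls in the first 2. The ATG7KO call of PKM was lost without EBSS replicate 1 (0.0533) or 2 (0.125). With upper-quartile scaling neither GAPDH nor PKM was called higher in any line, at log2 changes of at most 0.08 in the knockout-labelled lines.

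PGAM1, phosphoglycerate mutase, fell in each line. It averaged 79.2 ± 10.2 CPM in EBSS and 118 ± 6.91 CPM in full medium in ATG7KO cells, and 97.9 ± 6.00 and 126 ± 12.8 CPM in RB1CC1KO-labelled cells. WT cells averaged 87.7 ± 4.58 CPM in EBSS and 137 ± 7.53 CPM in full medium (SD, n = 3). The media did not overlap in any line. The log2 changes were -0.56 ± 0.08, -0.37 ± 0.08 and -0.65 ± 0.08 (edgeR adjusted p = 2.04e-07, 7.34e-05 and 5.38e-09). PGAM1 also has 13 annotated pseudogenes, whose reads summed to 0.925% of its own, the largest such share among the members. PGK1, phosphoglycerate kinase, and ENO1, the major enolase, passed in no line, with log2 changes between -0.07 and 0.07 for ENO1 and between 0.04 and 0.07 for PGK1. ENO2, the neuronal enolase, was called lower in all 3 lines at -0.16, -0.19 and -0.14. Its ATG7KO call was lost without full-medium replicate 3 (0.0661), and its WT call without EBSS replicate 2 or 3 or full-medium replicate 3 (0.0639 to 0.115).

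The genes of lactate production and transport did not move in 1 direction. LDHA encodes the muscle-type lactate dehydrogenase subunit, which favours lactate production. ATG7KO cells had 753, 789 and 725 CPM in EBSS, against 1098, 1106 and 1025 CPM in full medium. In RB1CC1KO-labelled cells LDHA had 916, 1004 and 872 CPM in EBSS and 1151, 1285 and 1202 CPM in full medium. WT cells had 812, 830.3 and 718 CPM in EBSS and 1047, 1074 and 1049.6 CPM in full medium. Every EBSS library lay below every full-medium library. LDHA fell, with log2 changes of -0.51 ± 0.06, -0.38 ± 0.06 and -0.43 ± 0.06 in ATG7KO, RB1CC1KO-labelled and WT cells (edgeR adjusted p = 1.15e-08, 2.07e-06 and 3.51e-07). LDHB, the heart-type subunit, passed in no line. Per kilobase, LDHA made up 28.7% ± 0.67 of the RNA of both subunits in starved ATG7KO cells, 32.6% ± 1.5 in RB1CC1KO-labelled and 29.02% ± 0.78 in WT cells, against 36.1% ± 0.43, 37.3% ± 1.17 and 37.1% ± 0.88 in full medium (SD, n = 3).

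SLC16A1, or MCT1, carries lactate and pyruvate across the plasma membrane in both directions. It rose to 319 ± 14.0 CPM in starved ATG7KO cells, against 245 ± 6.54 CPM in full medium. In RB1CC1KO-labelled cells it averaged 383 ± 1.81 CPM in EBSS and 282 ± 19.6 CPM in full medium, and in WT cells 364 ± 8.70 and 255 ± 2.11 CPM. SLC16A1 had log2 changes of 0.38 ± 0.06, 0.44 ± 0.06 and 0.51 ± 0.06 (edgeR adjusted p = 3.80e-07, 1.35e-08 and 6.22e-10), without overlap in any line. SLC16A3, or MCT4, is the low-affinity lactate exporter of glycolytic cells. ATG7KO cells had 26.0, 31.0 and 29.5 CPM in EBSS and 44.6, 39.0 and 47.5 CPM in full medium. RB1CC1KO-labelled cells had 24.8, 16.8 and 23.3 CPM in EBSS, against 25.5, 21.7 and 30.2 CPM in full medium. WT cells had 16.5, 15.5 and 15.7 CPM in EBSS and 28.9, 24.6 and 25.1 CPM in full medium. SLC16A3 fell in ATG7KO and WT cells, without overlap, and the RB1CC1KO-labelled libraries overlapped. Its log2 changes were -0.60 ± 0.12 (edgeR adjusted p = 1.18e-04), -0.27 ± 0.12 (adjusted p = 0.0592) and -0.72 ± 0.13 (adjusted p = 2.61e-05) in ATG7KO, RB1CC1KO-labelled and WT cells. CSNK1D, which overlaps SLC16A3 on the opposite strand, had log2 changes of 0.73, 0.96 and 0.75 in the same lines. It had 58953 reads over all libraries, against 7680 for SLC16A3, and its part in the SLC16A3 counts was not tested. PDK1 and PDK3 encode kinases that switch off pyruvate dehydrogenase and so keep pyruvate out of mitochondria. PDK1 fell in ATG7KO cells (-0.31 ± 0.10, adjusted p = 0.00871) and changed by -0.07 and -0.10, not called, in RB1CC1KO-labelled and WT cells. PDK3 passed in no line.

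The HIF members moved more, and not in 1 direction. HIF1A RNA, which encodes the oxygen-regulated subunit, rose by nearly the same amount in the 3 lines. ATG7KO cells had 301, 273 and 268 CPM in EBSS, against 188, 187 and 183 CPM in full medium. RB1CC1KO-labelled cells had 338, 379 and 346 CPM in EBSS and 231, 245 and 216 CPM in full medium. In WT cells HIF1A had 313, 323 and 289 CPM in EBSS and 189, 217 and 204 CPM in full medium. No starved library overlapped a full-medium library of its line. HIF1A had log2 changes of 0.59 ± 0.07, 0.62 ± 0.06 and 0.60 ± 0.06 in ATG7KO, RB1CC1KO-labelled and WT cells (edgeR adjusted p = 7.57e-10, 1.43e-10 and 4.95e-10).

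The prolyl hydroxylases went opposite ways. EGLN1, or PHD2, the main oxygen sensor acting on HIF1A, rose in each line by 0.42 ± 0.07, 0.39 ± 0.07 and 0.39 ± 0.07 on the log2 scale in ATG7KO, RB1CC1KO-labelled and WT cells (edgeR adjusted p = 3.79e-06, 4.95e-06 and 8.00e-06). EGLN3, or PHD3, is a HIF target that hypoxia strongly induces in many cells. In ATG7KO cells EGLN3 had 5.17, 4.96 and 5.30 CPM in EBSS, against 27.3, 28.1 and 27.6 CPM in full medium. RB1CC1KO-labelled cells had 5.69, 5.21 and 5.34 CPM in EBSS and 24.9, 23.6 and 26.7 CPM in full medium. WT cells had 3.12, 2.63 and 2.43 CPM in EBSS and 19.9, 18.3 and 18.6 CPM in full medium. The starved libraries were far below the others in each line, and WT was the lowest line in both media. EGLN3 fell, with log2 changes of -2.44 ± 0.12, -2.21 ± 0.11 and -2.79 ± 0.12 in ATG7KO, RB1CC1KO-labelled and WT cells (adjusted p = 2.58e-19, 1.94e-19 and 4.48e-20), the largest drop among the members in every line. Per kilobase, EGLN3 was 7.76% ± 0.24 of the RNA of the pair in starved ATG7KO cells, 7.08% ± 0.29 in RB1CC1KO-labelled and 4.06% ± 0.50 in WT cells, against 37.9% ± 1.38, 31.7% ± 1.80 and 27.8% ± 1.86 in full medium.

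KDM3A, a histone demethylase that needs oxygen and is induced in hypoxia, rose more than 2-fold in each line. ATG7KO cells had 137, 135 and 139 CPM in EBSS, against 49.7, 50.2 and 48.7 CPM in full medium. In RB1CC1KO-labelled cells it had 171, 185 and 176 CPM in EBSS and 53.4, 56.0 and 54.1 CPM in full medium. WT cells had 135, 136 and 137 CPM in EBSS and 49.9, 50.3 and 53.9 CPM in full medium. The starved RB1CC1KO-labelled libraries lay above all other libraries. The log2 changes were 1.46 ± 0.06, 1.70 ± 0.06 and 1.40 ± 0.06 (edgeR adjusted p = 5.39e-21, 2.06e-23 and 1.30e-20).

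ANKRD37, an ankyrin-repeat protein gene widely used as a HIF read-out, was the lowest tested member in full-medium WT cells per kilobase. ATG7KO cells had 4.20, 5.03 and 4.24 CPM in EBSS, against 1.06, 1.95 and 1.62 CPM in full medium. RB1CC1KO-labelled cells had 11.5, 11.0 and 10.4 CPM in EBSS and 1.53, 1.69 and 0.971 CPM in full medium. In WT cells ANKRD37 had 4.47, 5.76 and 4.55 CPM in EBSS and 1.61, 1.14 and 1.18 CPM in full medium. It rose in each line without overlap, and highest in the RB1CC1KO-labelled libraries, by 1.55 ± 0.23, 2.96 ± 0.20 and 1.92 ± 0.23 on the log2 scale (edgeR adjusted p = 2.85e-07, 2.55e-15 and 3.63e-09). The full-medium libraries held 15 to 36 reads of it. UFSP2, which overlaps it on the opposite strand, was not called in any line.

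ADM, the secreted peptide adrenomedullin, a vasodilator induced in hypoxia, had its largest response in RB1CC1KO-labelled cells. ATG7KO cells had 11.6, 13.9 and 14.6 CPM in EBSS and 11.9, 12.4 and 13.2 CPM in full medium. RB1CC1KO-labelled cells had 22.6, 15.4 and 19.2 CPM in EBSS, against 9.67, 9.46 and 8.86 CPM in full medium. WT cells had 15.6, 13.8 and 16.1 CPM in EBSS and 12.8, 11.8 and 13.2 CPM in full medium. Only the ATG7KO libraries overlapped between media. ADM rose by 1.02 ± 0.12 on the log2 scale in RB1CC1KO-labelled cells (edgeR adjusted p = 4.06e-09), and its changes were 0.08 ± 0.13 in ATG7KO (adjusted p = 0.613) and 0.28 ± 0.12 in WT cells (adjusted p = 0.0456). The WT call was lost without any one WT library except EBSS replicate 2 (0.0655 to 0.162), and with upper-quartile scaling (0.369). It was also lost with DESeq2 (0.0669) and with no filter on low counts (0.0814). P4HA1 and P4HA2, subunits of the collagen prolyl hydroxylases, passed in no line, at log2 changes between -0.12 and 0.20.

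The known HIF core sequence was looked for in RefSeq promoter windows (GRCh38.p14, from 250 bases before to 50 after each annotated start), which 32 of the 35 members have. Searched on both strands were ACGTG and GCGTG, and CACGTG, an E-box that contains ACGTG. Either core was present in 65.3% of 49 windows of glycolysis members and 72.7% of 11 windows of HIF members, against 48.4% of all 35116 windows in the table. By gene, 95.7% of 23 glycolysis members and 77.8% of 9 HIF members had it in a window, against 52.4% of all 27305 genes in the table. The shares by gene are not like for like. The 23 glycolysis members have 49 windows, more per gene than the 35116 windows of all 27305 genes, and each window adds a further place for a match. Among members with a window, the core was in a window of 6 of 6 higher in all 3 lines, 3 of 3 higher in 2 and 2 of 2 higher in 1. It was in a window of 2 of 4 lower in all 3 lines, 4 of 4 lower in 2 and 2 of 2 lower in 1, and of 8 of 9 called in none. These counts leave out SLC2A3 and SLC16A1, 2 of the 8 members higher in all 3 lines, and PFKFB2, which was lower in 2. A link between the core and the response was not tested. The 5 upstream stretches of 150 bases are shown because they belong to ANKRD37, KDM3A and EGLN3, among the members with the largest changes, to LDHA, which fell in each line, and to PGK1, which did not pass the test. Capitals mark a core on either strand. A match is a description and not a binding site.
ANKRD37: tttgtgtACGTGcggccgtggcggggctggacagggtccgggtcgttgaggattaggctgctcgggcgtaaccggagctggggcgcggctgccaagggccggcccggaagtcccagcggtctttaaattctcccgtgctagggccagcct
KDM3A: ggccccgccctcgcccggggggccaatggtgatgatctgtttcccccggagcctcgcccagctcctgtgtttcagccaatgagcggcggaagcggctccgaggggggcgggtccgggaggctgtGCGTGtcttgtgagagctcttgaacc
EGLN3: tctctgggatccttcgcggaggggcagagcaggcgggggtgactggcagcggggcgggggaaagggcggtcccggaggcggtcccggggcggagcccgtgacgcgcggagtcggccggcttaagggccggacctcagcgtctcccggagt
LDHA: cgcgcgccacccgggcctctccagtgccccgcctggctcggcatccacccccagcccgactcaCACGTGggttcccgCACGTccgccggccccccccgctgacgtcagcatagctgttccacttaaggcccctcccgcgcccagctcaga
PGK1: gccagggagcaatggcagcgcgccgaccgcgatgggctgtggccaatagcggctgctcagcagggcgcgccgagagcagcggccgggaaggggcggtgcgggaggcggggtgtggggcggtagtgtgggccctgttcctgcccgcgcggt

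Each stretch reads 5′ to 3′ on the strand of its gene and ends at the base before the annotated start. They are chr4:185396691-185396840 on the plus strand for ANKRD37, chr2:86441221-86441370 on the plus strand for KDM3A, chr14:33951075-33951224 on the minus strand for EGLN3, chr11:18394413-18394562 on the plus strand for LDHA and chrX:78104098-78104247 on the plus strand for PGK1. ANKRD37 and KDM3A, which rose, each hold 1 core. LDHA, which fell, holds 2, of which 1 is a CACGTG. The stretches of EGLN3, which fell, and of PGK1 hold none, which says only that these letters are not in them. The longer promoter window of PGK1 holds 3 matches of ACGTG and 1 of GCGTG, all outside the stretch shown. The window of ANKRD37 also holds 1 CACGTG outside its stretch. EGLN3 is the only one of these genes with no core in its window, so the stretch alone does not set PGK1 apart from the members that rose. PFKFB2, SLC16A1 and SLC2A3 have no window in the table. The letters of a bZIP core of ATF4 and C/EBP factors, TGATGNAA on either strand, were in 4.08% of the glycolysis windows and in 0 of the 11 HIF windows, against 3.62% of all windows. The 2 matching glycolysis windows overlap, both belong to HK1 and hold the same site. By gene the share was 4.35% of 23 glycolysis members, against 4.46% of all genes.

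Per kilobase of exon the members spanned more than 3 orders of magnitude, which places the changes on a scale of abundance. In starved WT cells the mean levels were highest for GAPDH, then PKM and ENO1, and, among the tested members, lowest for EGLN3. In full-medium WT cells the order began with GAPDH, ENO1 and PKM and ended with SLC2A3 and ANKRD37. ENO1 and PKM did not differ beyond their spread in starved WT cells. Starvation moved EGLN3 to 0.371 CPM per kb, against 2.57 in full medium, and SLC2A3 to 6.12, against 0.883. KDM3A was at 10.1 CPM per kb in starved and 3.83 in full-medium WT cells.

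**Figure D3:**
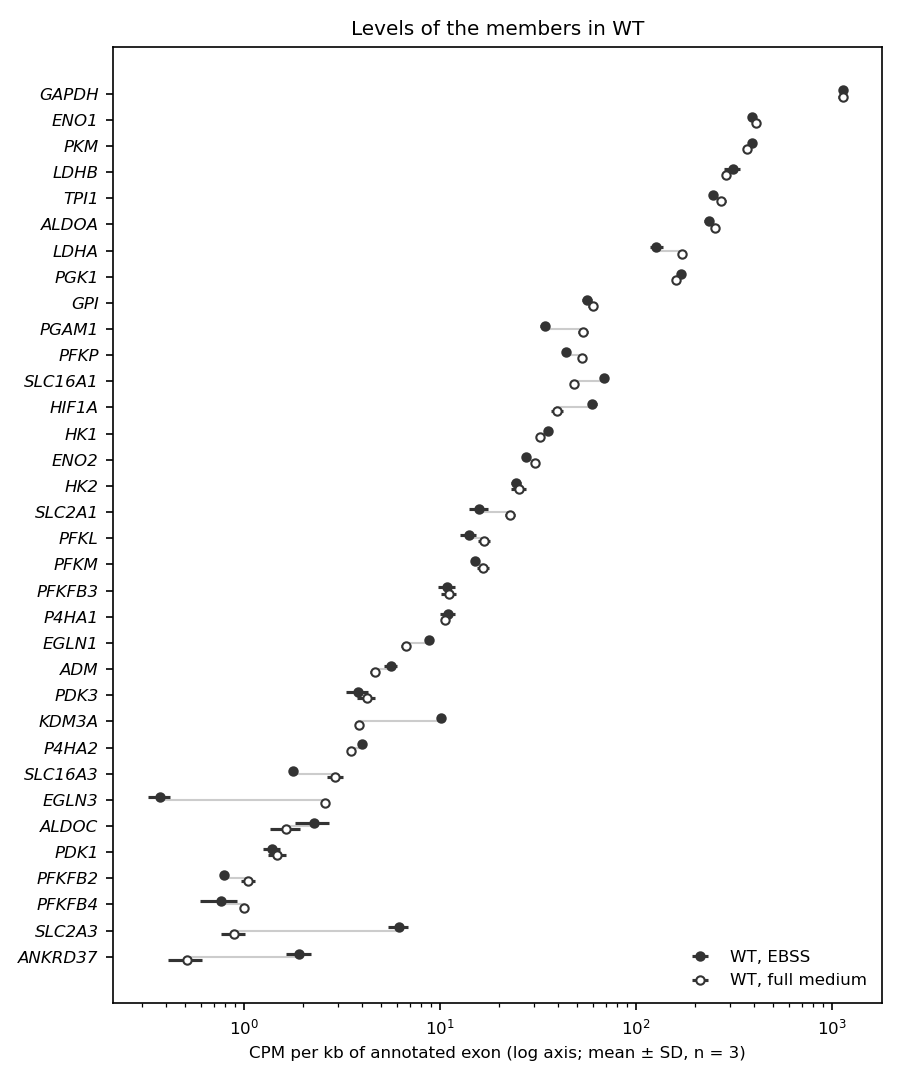
Level of each tested member in WT cells as CPM per kilobase of annotated exon (x axis, logarithmic, mean ± SD of 3 libraries), in EBSS (filled) and full medium (open), ordered by the level in full medium. Most of the abundant enzymes at the top move little, apart from LDHA, which is lower in EBSS. EGLN3, SLC2A3, KDM3A and ANKRD37, lower on the axis, move most.

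In full medium the ATG7KO line differed from WT in 1 glycolysis member and 1 HIF member, both higher, where 10.5% of all genes were called, 4.47% higher and 6.07% lower. Both members separated the libraries of the lines without overlap, as 29% of all genes did. SLC16A3 was higher, at 43.7 ± 4.30 CPM in ATG7KO and 26.2 ± 2.33 CPM in WT (SD, n = 3; log2 difference 0.74 ± 0.12, edgeR adjusted p = 5.69e-05). EGLN3 was higher, at 27.7 ± 0.367 CPM in ATG7KO and 18.9 ± 0.860 CPM in WT (log2 difference 0.55 ± 0.09, adjusted p = 3.25e-05). The other 25 glycolysis members had log2 differences between -0.48 and 0.24. A fit of the compared groups alone called 3 glycolysis and 2 HIF members, and 2 glycolysis members were called without WT replicate 2.

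RB1CC1KO-labelled cells in full medium had 5 glycolysis members higher and none lower than WT, with 17.2% of all genes called, and 2 HIF members higher and 1 lower. Of all genes 8.3% were higher and 8.87% lower. With RLE or upper-quartile scaling the counts were 5 higher and 1 lower glycolysis members, and 1 higher and 1 lower HIF member. SLC2A1 was 129.9 ± 6.87 CPM in RB1CC1KO-labelled and 107 ± 6.38 CPM in WT cells (log2 difference 0.28 ± 0.07, edgeR adjusted p = 0.00403). ENO2 (0.30 ± 0.06, adjusted p = 1.82e-04) and EGLN3 (0.41 ± 0.09, adjusted p = 0.00145) were also higher. The other 5 calls were lost when a single library was left out. TPI1 (0.22) was lost without RB1CC1KO-labelled replicate 3 or WT replicate 2 (adjusted p up to 0.0914), and LDHA (0.20) and PDK1 (0.30) without RB1CC1KO-labelled replicate 2 or 3 or WT replicate 1 or 3 (up to 0.231 and 0.207). HIF1A (0.18) was lost without any one RB1CC1KO-labelled library or WT replicate 1 or 3 (0.0686 to 0.348). ADM, lower by call at -0.42, was lost without RB1CC1KO-labelled replicate 3 (0.0513) or WT replicate 1 (0.0569). The count of glycolysis members called was 2 without RB1CC1KO-labelled replicate 3, 3 without its replicate 2 or WT replicate 1 or 3, and 8 without its replicate 1. That of HIF members was 1 without RB1CC1KO-labelled replicate 3 or WT replicate 1.

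Under starvation the ATG7KO line differed from WT in 4 glycolysis members, 2 higher and 2 lower, with 13.2% of all genes called, 6.07% higher and 7.17% lower, and in 1 HIF member, which was higher. The libraries of the lines did not overlap in 27.6% of all genes. SLC2A3 was lower, at 20.8 ± 1.98 CPM in ATG7KO and 37.7 ± 4.27 CPM in WT (log2 difference -0.86 ± 0.11, edgeR adjusted p = 3.38e-07). SLC16A3 was higher, at 28.9 ± 2.56 CPM in ATG7KO and 15.9 ± 0.563 CPM in WT (0.86 ± 0.13, adjusted p = 3.07e-05). EGLN3 was higher, at 5.14 ± 0.175 CPM in ATG7KO and 2.73 ± 0.354 CPM in WT (0.91 ± 0.16, adjusted p = 4.95e-05). HK1 at 0.17 was not called without any one of the 6 libraries (adjusted p from 0.0741 to 0.373). SLC16A1 at -0.19 was not called without ATG7KO replicate 2 or 3 or WT replicate 1 (0.0699 to 0.0827). The glycolysis count was 2 without ATG7KO replicate 2 or 3 or WT replicate 1, and the HIF count was 2 without ATG7KO replicate 1 or 3.

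In starved RB1CC1KO-labelled cells 13 of 26 glycolysis members were higher and none lower than in starved WT cells, with 31.6% of all genes called, 14.8% higher and 16.9% lower. The median log2 difference over the glycolysis members was 0.19, against 0.00271 over all genes. The counts of 13 higher and none lower were the same with RLE and with upper-quartile scaling. The largest differences were those of PFKFB4 (1.03 ± 0.16, edgeR adjusted p = 4.85e-06), SLC2A1 (0.78 ± 0.07, adjusted p = 6.68e-11) and PFKFB3 (0.46 ± 0.07, adjusted p = 7.28e-06), genes of the transport and control steps. PFKFB4 averaged 9.35 ± 1.00 CPM in RB1CC1KO-labelled and 4.61 ± 0.990 CPM in WT cells, and SLC2A1 128 ± 4.12 and 74.5 ± 8.58 CPM, without overlap for either, as in 41.4% of all genes. HK2 (0.34), PDK1 (0.33), ENO2 (0.26), LDHA (0.24), PKM (0.19) and TPI1 (0.19) were called in each fit without 1 library. PFKM, GAPDH, ENO1 and SLC16A3 were called at 0.17, 0.21, 0.21 and 0.43, but each was lost in some such fits. ENO1 (0.0549), GAPDH (0.0528) and PFKM (0.116) were lost without WT replicate 2, GAPDH and PFKM without RB1CC1KO-labelled replicate 2 (0.0746 and 0.0578), and PFKM without its replicate 1 (0.0562). SLC16A3 was lost without RB1CC1KO-labelled replicate 1 (0.0729) or 3 (0.0646).

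Of the HIF members, 5 were higher and 1 was lower in starved RB1CC1KO-labelled than in starved WT cells. Over all genes 14.8% were higher and 16.9% lower. ANKRD37 differed by 1.15 ± 0.17 (edgeR adjusted p = 1.22e-06), EGLN3 by 0.99 ± 0.14 (adjusted p = 1.34e-06) and KDM3A by 0.39 ± 0.06 (adjusted p = 1.37e-06). P4HA2 was lower, at 26.7 ± 3.70 CPM in RB1CC1KO-labelled and 33.9 ± 1.42 CPM in WT cells (-0.34 ± 0.09, adjusted p = 0.00325). HIF1A (0.20) lost its call without RB1CC1KO-labelled replicate 2 (0.0889) or WT replicate 3 (0.0853). ADM (0.32) lost its call without RB1CC1KO-labelled replicate 1 (0.254) or 3 (0.0805) or WT replicate 2 (0.156).

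**Figure D4:**
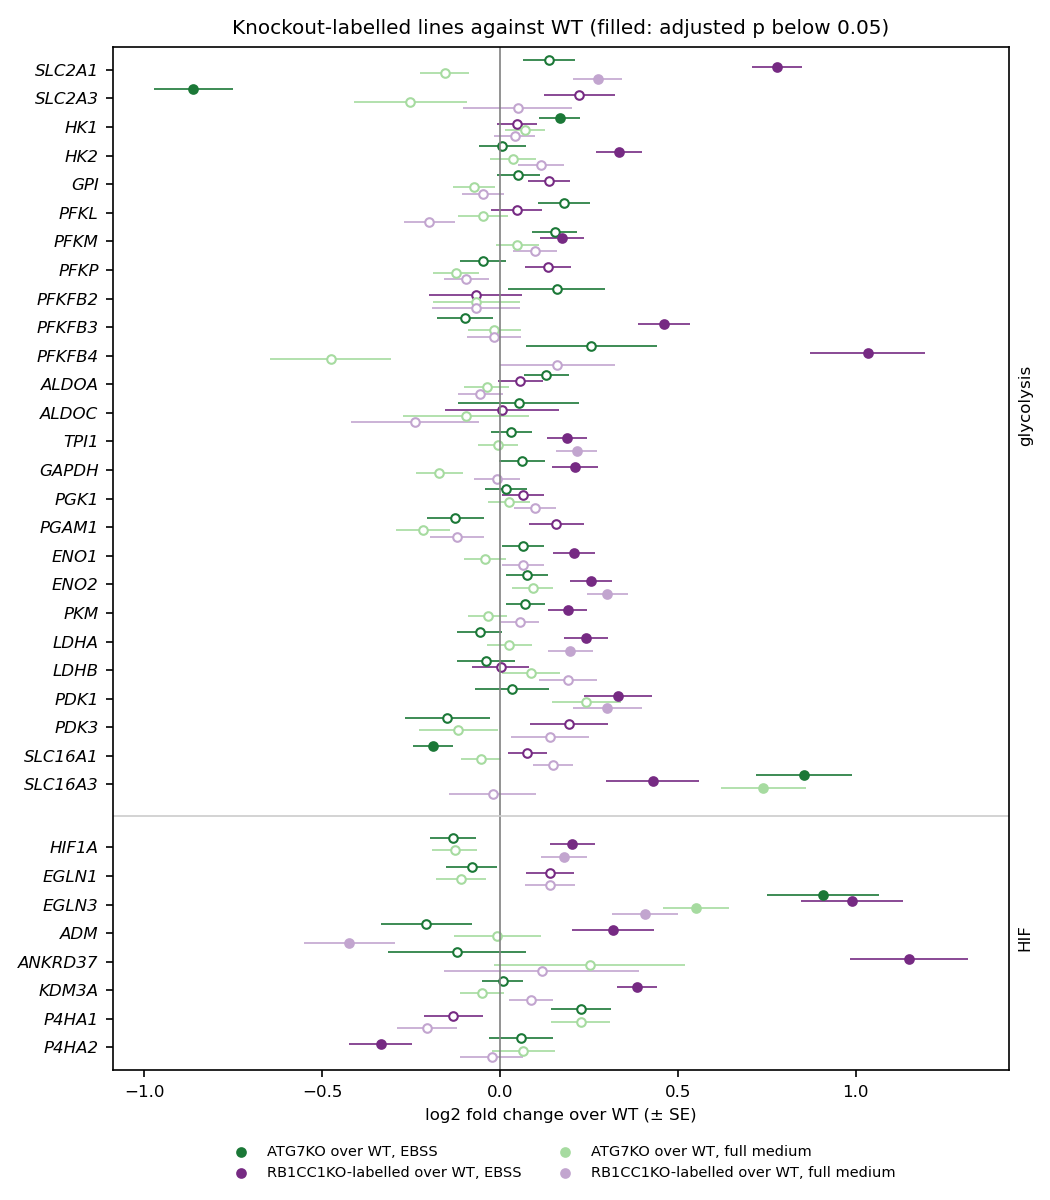
Log2 fold change of each tested member over WT (x axis, ± SE) in the ATG7KO and RB1CC1KO-labelled lines, in EBSS (dark) and full medium (pale), with filled points for an adjusted p below 0.05. The RB1CC1KO-labelled EBSS points lie right of 0 for 25 of 26 glycolysis members, 13 of them filled.

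The last comparison asks whether the response to starvation itself differed between a knockout-labelled line and WT. Between ATG7KO and WT no member passed edgeR's test of the difference or DESeq2's, with 1.05% of all genes called by edgeR, 0.369% above and 0.685% below WT, and 5 glycolysis members and no HIF member had an unadjusted p below 0.05. Without WT EBSS replicate 3, 1 glycolysis member passed. PFKFB4 had the highest value, 0.73 (edgeR adjusted p = 0.151), and SLC2A3 the lowest, -0.61 (adjusted p = 0.120). Between RB1CC1KO-labelled and WT cells 7 members passed, with 8.16% of all genes called, 2.68% above and 5.47% below WT; all 7 members had the higher value in the RB1CC1KO-labelled line. They were 3 of 26 glycolysis members and 4 of 8 HIF members. SLC2A1 differed by 0.50 ± 0.10 (adjusted p = 8.02e-04), PFKFB3 by 0.48 ± 0.11 (adjusted p = 0.00294) and PFKFB4 by 0.87 ± 0.23 (adjusted p = 0.0136). SLC2A1 had responses of -0.02 in RB1CC1KO-labelled and -0.53 in WT cells, and PFKFB3 of 0.44 and -0.04. ADM differed by 0.74 ± 0.17 (adjusted p = 0.00509) and KDM3A by 0.30 ± 0.08 (adjusted p = 0.0195). ANKRD37 at 1.03 ± 0.32 (adjusted p = 0.0408) and EGLN3 at 0.58 ± 0.17 (adjusted p = 0.0295) were near the threshold, and each lost its call when any of 6 of the 12 libraries was left out. For ANKRD37 these were replicates 1 and 3 of RB1CC1KO-labelled EBSS, 3 of RB1CC1KO-labelled full medium, 1 and 3 of WT EBSS and 1 of WT full medium (0.0535 to 0.169). For EGLN3 they were replicates 1 and 3 of RB1CC1KO-labelled EBSS, 2 of RB1CC1KO-labelled full medium, 2 and 3 of WT EBSS and 1 of WT full medium (0.0516 to 0.0874). With no filter on low counts 1 HIF member, ADM, passed instead of 4. KDM3A then had an edgeR adjusted p of 0.0644, ANKRD37 of 0.0513 and EGLN3 of 0.0817. The glycolysis count was 5 without RB1CC1KO-labelled full-medium replicate 1 and 6 without RB1CC1KO-labelled EBSS replicate 2, and the HIF count was 2 without RB1CC1KO-labelled EBSS replicate 1 or 3, WT EBSS replicate 3 or WT full-medium replicate 1. These comparisons share the WT libraries, so their values are not independent of each other.

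**Figure D5:**
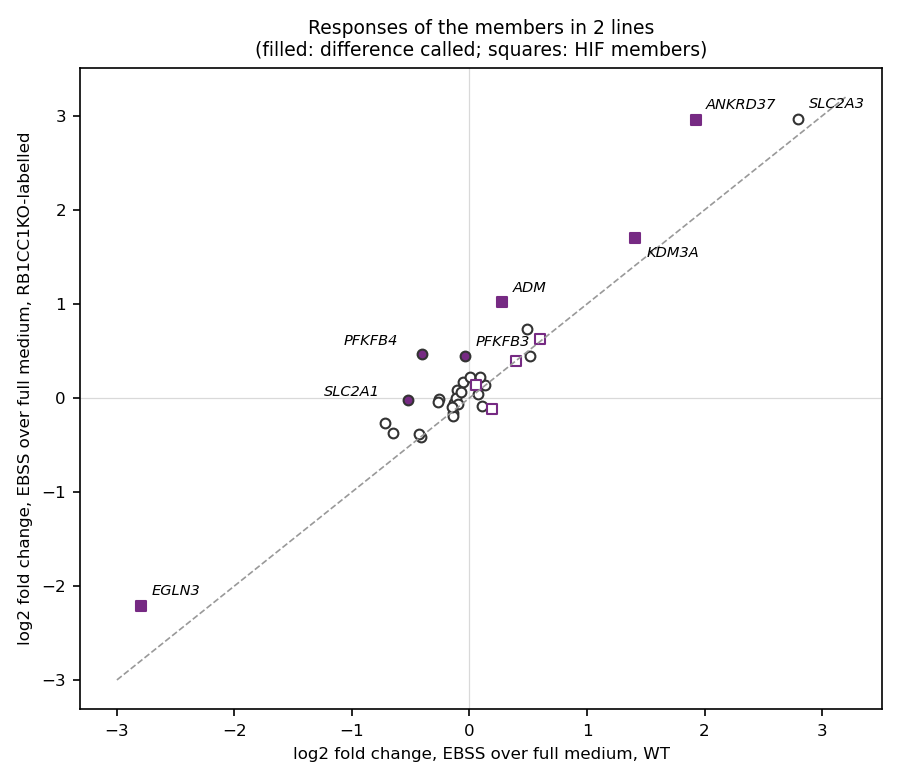
Response to EBSS of each tested member in RB1CC1KO-labelled cells (y axis) against WT cells (x axis), both as log2 fold change over full medium, with squares for HIF members and a dashed line of equal response. Filled points are the 7 members whose difference passed an adjusted p of 0.05, and all 7 lie above the line.

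Other genes of the same pathways were described from 4 further lists, for the same starvation comparisons, in which 62.9%, 65.1% and 64.5% of all genes were called in ATG7KO, RB1CC1KO-labelled and WT cells. Of 22 other tested genes of glycolysis and pyruvate use, 2 were higher and 11 lower in ATG7KO, 2 and 10 in RB1CC1KO-labelled and 2 and 11 in WT cells, so that 59.1%, 54.5% and 59.1% were called. PDP1, a phosphatase that switches pyruvate dehydrogenase on and so opposes the PDK kinases, rose by 0.86, 1.15 and 1.45 on the log2 scale in these lines (edgeR adjusted p = 4.50e-11, 3.08e-15 and 1.42e-17). In WT cells PDP2 went the other way from PDP1, at -0.67, and G6PC3 (-0.57) and SLC2A6 (-1.05) were also lower. Of 16 genes of the pentose phosphate pathway and glycogen, 3 were higher and 7 lower in ATG7KO, 3 and 4 in RB1CC1KO-labelled and 4 and 4 in WT cells (62.5%, 43.8% and 50% called). The 4 lower in WT were glycogen synthase GYS1 (-0.78), the pentose phosphate enzymes RPE (-0.64) and RPIA (-0.54), and PGM2 (-0.31).

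Of 15 tested regulators of HIF, 6 were higher and 3 lower in ATG7KO, 5 and 3 in RB1CC1KO-labelled and 6 and 2 in WT cells (60%, 53.3% and 53.3% called). In WT they included the HIF coactivators CREBBP (1.19) and EP300 (0.75) and the ubiquitin ligases SIAH1 (1.16) and SIAH2 (1.24), which act on prolyl hydroxylases. Of 26 other tested HIF targets, 10 were higher and 8 lower in ATG7KO, 10 and 8 in RB1CC1KO-labelled and 11 and 8 in WT cells (69.2%, 69.2% and 73.1% called, against 32.4% higher and 32.1% lower of all genes in WT). VEGFA, the angiogenic growth factor, averaged 310.5 ± 14.4 CPM in EBSS and 38.6 ± 0.218 CPM in full medium in ATG7KO cells, 402 ± 12.5 and 33.7 ± 2.07 CPM in RB1CC1KO-labelled cells, and 346 ± 26.4 and 39.9 ± 2.35 CPM in WT cells (SD, n = 3). Its log2 change was 3.11 ± 0.07 in WT (edgeR adjusted p = 2.83e-29). The repressor BHLHE40 (1.95) and the hydroxylase JMJD6 (1.14) were also higher in WT, and AK4, a mitochondrial adenylate kinase, was lower (-1.26).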

How the data were processed

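PolyA RNA of 18 HAP1 libraries was sequenced as 75 bp single-end reads with a directional kit, per the labels' protocols. The authors deposited a table of raw counts per gene identifier for each library. HTSeq 0.6.1p1, STAR 2.4.2a, DESeq2, edgeR and Picard are listed, without roles, in the submitters' processing notes, as is the build GRCh37 (hg19). Neither the strand setting nor the annotation release is given in the sources used here. Reads outside genes were 9.39% to 15.1% and ambiguous reads 2.08% to 2.42% of a library, and both were left out. Names and exon lengths came from GENCODE 29 (GRCh38) by gene identifier, and promoter windows from RefSeq (GRCh38.p14).

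All 18 libraries entered 1 fit by line and medium in edgeR 4.0.16 (R 4.3.3, limma 3.58.1), with genes kept by filterByExpr, TMM scaling, and the robust quasi-likelihood F test, adjusted by Benjamini-Hochberg over 15179 genes. A gene was called at an adjusted p below 0.05. The SE is the log2 fold change divided by the square root of F. CPM are TMM-scaled. The median library had 16275294.5 reads in genes, and among the members described ANKRD37, with a median of 33 reads per library, ALDOC (77.5) and PFKFB4 (85) rest on few reads. Counts were also simulated from these libraries, with 14774 genes tested. For EBSS against full medium in WT, 83.3% of 2-fold and 70.4% of 1.5-fold changes were recovered. For a response that differed between ATG7KO and WT the shares were 70.8% and 53.1%. In each, 0.0754% of unchanged genes were called. Only 96 tested genes with 2-fold and 98 with 1.5-fold changes had been altered, in WT EBSS alone. In the real libraries 64.5% of genes were called in WT, so these shares need not hold for them. Alternatives were RLE and upper-quartile scaling, no filter, DESeq2 1.42.0, a fit of the compared groups only, the replicate number as a block, and leaving out each library.

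Values of every library are given for members called at a log2 change of at least 1 with starvation or 0.58 between lines, and for HIF1A, GAPDH and LDHA; of the 4 further lists, the 4 called genes with the smallest p in WT are named. The members and lists were chosen with earlier results of these data known. GYS1 stands in 2 of the further lists.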

Additional observations from a re-analysis of the deposited data

Results flagged for a closer look

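For 7 members the response to starvation differed between RB1CC1KO-labelled and WT cells in a test of the difference itself, the interaction of line and medium in edgeR's quasi-likelihood fit. The difference in log2 response, RB1CC1KO-labelled minus WT, was 0.50 for SLC2A1, 0.48 for PFKFB3 and 0.87 for PFKFB4 among the glycolysis members. Among the HIF members it was 0.58 for EGLN3, 0.74 for ADM, 1.03 for ANKRD37 and 0.30 for KDM3A. RB1CC1 RNA was not lower in the RB1CC1KO-labelled libraries, and its bearing on these differences was not tested.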

How the results depend on the processing

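Of 99 calls of members over the 9 comparisons, 66 kept their direction and their side of the threshold under every alternative and 33 lost the call under at least 1. The change of HK1 with starvation in WT reversed to -0.0166 (log2) with upper-quartile scaling; the cause was not tested. For ATG7KO against WT in full medium, where 1 glycolysis member was called, 2 were called with no filter, 2 with the replicate block and 3 in the fit of the compared groups only, which called 2 HIF members instead of 1. For responses that differed between ATG7KO and WT, 281 genes were called with no filter, 293 with the replicate block and 305 with the replicate block within line, against 160. For that between RB1CC1KO-labelled and WT, 5 glycolysis members instead of 3 were called with either replicate block, and 1 HIF member instead of 4 with no filter. Leaving out single libraries gave 1 to 2 glycolysis members for ATG7KO against WT in full medium, and 2 to 8 glycolysis and 1 to 3 HIF members for RB1CC1KO-labelled against WT in full medium. For ATG7KO against WT in EBSS it gave 1235 to 1922 genes, 2 to 5 glycolysis and 1 to 2 HIF members. For the difference of responses it gave 71 to 275 genes and 0 to 1 glycolysis members with ATG7KO, and 788 to 1588 genes, 3 to 6 glycolysis and 2 to 4 HIF members with RB1CC1KO-labelled cells. The correlations of deviations do not settle whether the replicate numbers pair the samples. Within a line 1 of 9 same-numbered pairs was over 0.1 (range -0.05 to 0.22), and 2 of 18 pairs with different numbers. Of 9 EBSS libraries, each with 3 full-medium libraries to match, 3 correlated best with their own number. Across lines 4 of 36 same-numbered pairs were over 0.1, and 6 of 72 pairs with different numbers. The highest across lines, 0.19, joined ATG7KO EBSS replicate 1 and RB1CC1KO-labelled full-medium replicate 2. Depth limits the low members most, and CA9 was not detectable as different at this depth.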
